A study of Mus musculus with 16 samples.

Results

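The comparison described here is that of a ketogenic diet with a standard diet in the hippocampus of Kcna1 knockout mice, read across the whole transcriptome. It uses 7 of the 16 RNA sequencing libraries of the series. These are all 4 knockout libraries on ketogenic diet and 3 of the 4 knockout libraries on standard diet. The 3 were selected on the targeted gene itself: a standard-diet knockout library entered when its Kcna1 count was below 60 on the CPM scale (counts relative to library size, here the column total). The labels describe brain tissue, hippocampus, from animals that were wild type or lacked Kcna1 and were fed a standard or a ketogenic diet, with 4 libraries in each of the 4 groups. Strain, age, sex, the make-up and length of the diet and the kind of Kcna1 allele are not given in the sources used here. The labels do not say outright that each library is a separate animal, so the p-values measure the spread between these libraries. Libraries are named here by the tag in their column heading. Values are listed in the order KC872RL, KC873RR, KC893RL for the standard-diet knockout and KC913RR, KC916RRL, KC934R, KC935LL for the ketogenic-diet knockout.

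Kcna1 encodes Kv1.1, a voltage-gated potassium channel of axons and terminals that limits neuronal excitability, and mice without it develop spontaneous seizures. A ketogenic diet is rich in fat and poor in carbohydrate, makes the liver release ketone bodies that the brain can burn in place of glucose, and is used against drug-resistant epilepsy. In a hippocampus with repeated seizures, astrocytes commonly raise intermediate filament genes such as Gfap, microglia change state, and neurons show activity-dependent transcription. The series title names hippocampal astrogliosis under this diet as the question.

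The values that chose the libraries were as follows. Kcna1 stood at 47.9, 45.5 and 47.1 CPM of total in the 3 standard-diet knockout libraries, and at 42.3, 44.4, 46.8 and 43.4 in those on ketogenic diet. The 8 wild-type libraries lay between 107.7 and 129.5. The library left out, KC888LL, held 82.2 CPM of total (95% Wilson interval 78.1 to 86.4, counting error only), between the knockout and the wild-type libraries, and the nearest library inside the threshold held 47.9 (44.9 to 51.1). These Kcna1 levels are the rule and are given without a test. All other levels below are CPM after TMM scaling.

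The 7 libraries held 13440230 to 19261776 counts. Mitochondrial genes took 2.07% to 2.52% of them. The groups were not balanced for sex-linked expression. In the standard-diet knockout, KC872RL and KC873RR had Ddx3y, a Y-linked gene, at 62.8 and 63.1 CPM with Xist, the X-inactivation RNA, at 4.40 and 5.47, whereas KC893RL had Xist at 784. All 4 ketogenic-diet knockout libraries had Xist between 777 and 822 CPM and Ddx3y at or below 0.150. Diet and this sex-linked pattern can therefore be told apart in the knockout only through KC893RL. Markers of the dissection also varied: the 13 thalamic genes summed to between 223 and 341 CPM in the 7 libraries, and the 9 striatal genes to between 154 and 246. The dentate gene Prox1 was present throughout, at 137, 137 and 134 on standard and 203, 156, 151 and 154 on ketogenic diet. In a principal component analysis of the 7 libraries the first component held 33.8% of the variance. Along it KC872RL, KC873RR and KC893RL had scores of -40.0, -28.6 and -14.4, and the ketogenic-diet libraries of 39.4, 20.7, 8.52 and 14.4, so the diets did not overlap. The second component held 25.6% and spread the ketogenic-diet libraries from -30.0 in KC935LL to 41.2 in KC913RR.

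Of 17725 genes tested with edgeR's quasi-likelihood test, 1096 differed between the diets in the knockout at an adjusted p below 0.05 (Benjamini-Hochberg over all tested genes), which is 6.18% of them. Called genes were higher on ketogenic diet in 458 cases (2.58%) and lower in 638 (3.60%). In wild type the same test called 2 genes, 0.0113% of those tested. With KC888LL restored to the standard-diet knockout, 202 genes were called (1.16% of 17469 tested), and all 202 were among the 1096. Of the 1096, 138 were still called without KC872RL, 412 without KC873RR and 854 without KC893RL, where the totals were 139, 446 and 1174. A fit of the 7 libraries alone, whose spread rests on 5 residual degrees of freedom in place of 11, called 83. The fit of 15 libraries takes the spread of a gene from all groups together. Pairs of standard-diet knockout libraries, without KC888LL, differed by a chi-square per gene of 10.005 to 12.7. Ketogenic-diet knockout pairs differed by 3.86 to 25.3. Wild-type pairs differed by 4.87 to 6.79 on standard and 3.91 to 14.8 on ketogenic diet. The part of this unequal spread in the change from 1096 to 83 was not tested. With Xist as a covariate 71 were called, 65 of them among the 1096. Restricted to libraries with Xist and without Ddx3y, which leaves KC893RL alone on the standard-diet side and assumes that it varies like the libraries of the other groups, edgeR called 0 genes, with 1362 at an unadjusted p below 0.05. There 1078 of the 1095 called genes that were tested kept their direction, at a median of 0.78 times the log2 fold change in the fit of 15 libraries. Every called gene that was tested kept its direction with KC888LL, in the 7 libraries alone, with Xist as a covariate and without KC872RL, at median ratios of 0.83, 1.01, 0.92 and 0.89. The called genes were chosen by their difference in these libraries, and each of these fits reuses most of them. Kept direction was therefore close to given in advance, and nothing is read from it.

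The higher and the lower genes differed in size and level. The 458 higher genes moved by a median of 0.33 on the log2 scale and had a median level of 96.6 CPM, and 19 of them changed at least 2-fold. The 638 lower genes moved by a median of 0.71 and had a median level of 15.2 CPM, and 187 changed at least 2-fold. Over all tested genes the median absolute difference was 0.15 and the median level 15.96 CPM. Higher genes had a median transcript length of 4316 bases and lower genes of 3416, against 3139 for all tested genes. The 3 standard-diet and 4 ketogenic-diet values did not overlap for 954 of the 1096 called genes, against 16.1% of all tested genes. With a limit of 0.5 on the absolute log2 fold change, 531 of the called genes remained, 86 higher and 445 lower.

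**Figure D1:**
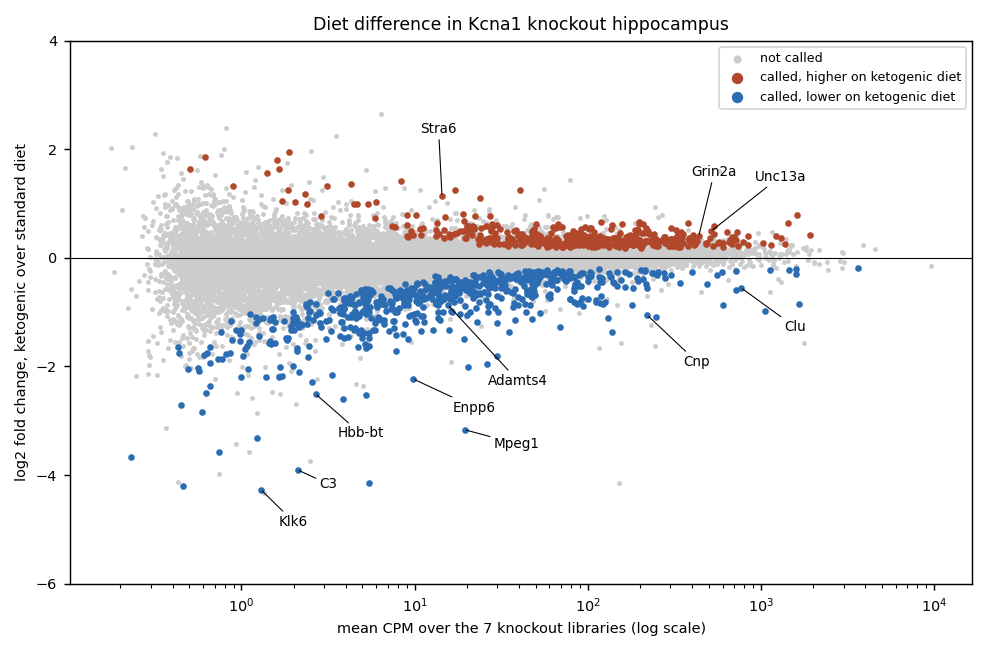
Log2 fold change of ketogenic over standard diet in the knockout (vertical axis) against the mean CPM over the 7 knockout libraries (horizontal axis, log scale). Each point is a tested gene; the 458 called higher and 638 called lower genes are coloured, and 5 genes lie outside the vertical range. Higher calls lie mostly at small fold changes of well expressed genes, and lower calls reach larger folds at lower levels.

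Stra6 had the smallest p among the genes that rose. It encodes the membrane receptor that takes up retinol from its carrier protein, and it lies on chromosome 9 at 58063788 to 58153996 (GRCm38). Its level was 7.45, 8.67 and 9.56 CPM on standard diet and 15.4, 20.96, 17.3 and 21.3 on ketogenic diet. The groups did not overlap, and the log2 fold change was 1.13 ± 0.14 (edgeR adjusted p = 0.00127). Here and below, values in parentheses after the levels are log2 fold changes of ketogenic over standard diet ± SE from edgeR, and adjusted p-values are Benjamini-Hochberg over all tested genes. Wild-type means were 14.6 ± 2.34 and 15.8 ± 0.472 on standard and ketogenic diet (SD, n = 4 each), and KC888LL held 14.5. The 3 standard-diet knockout libraries lay below every wild-type library (12.1 to 16.7 CPM), and 3 of the 4 ketogenic-diet knockout libraries lay above every one of them.

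Nos1ap, an adaptor of neuronal nitric oxide synthase, was at 76.1, 78.3 and 90.1 CPM on standard and 123, 123, 116 and 114 on ketogenic diet (0.55 ± 0.07, adjusted p = 0.00127). Shisa6, an auxiliary protein of AMPA receptors, was at 136, 156 and 161 and 260.1, 224, 222 and 227 (0.63 ± 0.09, adjusted p = 0.00174), with KC913RR above the other ketogenic-diet libraries. Grin2a, the GluN2A subunit of the NMDA receptor, was at 346, 397 and 364 and 492, 523, 466 and 479.6 (0.41 ± 0.06, adjusted p = 0.00174). In Nos1ap, Shisa6 and Grin2a the 4 ketogenic-diet libraries stood above the 3 standard-diet ones, by less than 2-fold. Unc13a, which primes synaptic vesicles for release, was at 395, 408 and 453 and 596, 614, 585 and 561 (0.49 ± 0.07). Cbs, the enzyme that turns homocysteine into cystathionine, was at 23.2, 22.3 and 21.2 and 31.2, 35.6, 34.3 and 32.0 (0.58 ± 0.09, adjusted p = 0.00174). Crmp1, Dscaml1, Dok4, Spink8, Slit3 and Rab15 complete the 12 higher genes of smallest p, with log2 fold changes from 0.42 in Slit3 to 0.79 in Spink8. Slit3 is a secreted guidance ligand and Rab15 a small GTPase of endosomal traffic.

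The largest fold increases among genes that did not overlap were in sparsely expressed genes. Krt73, a keratin gene, was at 4.10, 3.14 and 5.70 CPM on standard and 22.2, 7.79, 9.66 and 6.11 on ketogenic diet (1.41 ± 0.37, adjusted p = 0.039), with KC913RR highest. Alox12b, a lipoxygenase gene, was at 1.5, 1.28 and 2.28 and 2.94, 5.62, 3.48 and 4.82 (1.32 ± 0.27, adjusted p = 0.00885), and its wild-type means were 2.32 ± 0.560 and 4.46 ± 0.568. Trim71 and Chst9 had log2 fold changes of 1.25 and 1.17 at levels below 4 CPM. Sfrp5, a secreted inhibitor of Wnt signalling, fell, at 3.85, 2.09 and 1.65 CPM on standard and 0.400, 0, 0.331 and 0.235 on ketogenic diet (-3.31 ± 0.56, adjusted p = 0.00375). At such levels a library holds few reads of the gene, and the SE was 0.29 for Trim71 and 0.25 for Chst9.

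Among genes that fell, Adamts4 had the smallest p. It encodes a secreted protease that cleaves aggrecan and other matrix proteoglycans and lies on chromosome 1 at 171250421 to 171260637 (GRCm38). Its level was 21.1, 22.1 and 20.1 CPM on standard and 10.5, 11.6, 10.98 and 12.9 on ketogenic diet (-0.87 ± 0.11, adjusted p = 0.00127). The groups were far apart relative to their spread. Wild-type means were 24.3 ± 2.65 and 15.01 ± 1.81, a fall of 0.69 on the log2 scale that also passed the test (adjusted p = 0.0162), and KC888LL, on standard diet, held 26.8. The wild-type call was lost when any 1 of KC842L, KC844RR, KC846L, KC890RL, KC894RLL and KC897RR was left out. In the fit of 15 libraries Adamts4 was the only gene called in both genotypes.

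Clu, the secreted chaperone clusterin, was at 923, 1065 and 829 CPM on standard and 629, 647, 686 and 599 on ketogenic diet (-0.55 ± 0.07, adjusted p = 0.00127). S100b, an astrocyte calcium-binding protein, was at 87.0, 75.1 and 69.1 and 39.4, 44.9, 55.6 and 49.1 (-0.70 ± 0.09, adjusted p = 0.00127). Both genes separated the diets without overlap, and the wild-type means of Clu were 647 ± 12.8 and 664 ± 28.7, at the level of the ketogenic-diet knockout, as was KC888LL at 635. Pdlim2, a PDZ and LIM domain protein, was at 8.85, 9.02 and 8.17 and 2.00, 2.85, 3.70 and 3.76 (-1.48 ± 0.20). Rnf13, a ubiquitin ligase of endosomes and lysosomes, was at 109.6, 104 and 103 and 63.0, 78.0, 75.8 and 78.5 (-0.52 ± 0.07). Rida, Tmem47 and Arhgef10 fell by 0.89, 0.81 and 0.68 on the log2 scale. Of the 23 genes of smallest p that are reported, 12 higher and 11 lower, all 23 remained called without any 1 of the 7 libraries, 15 with KC888LL and 22 with Xist as a covariate. They were chosen for small p and no overlap, so staying called is in part built into the choice. Of all 1096 called genes, 138 remained without KC872RL and 65 with Xist as a covariate.

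**Figure D2:**
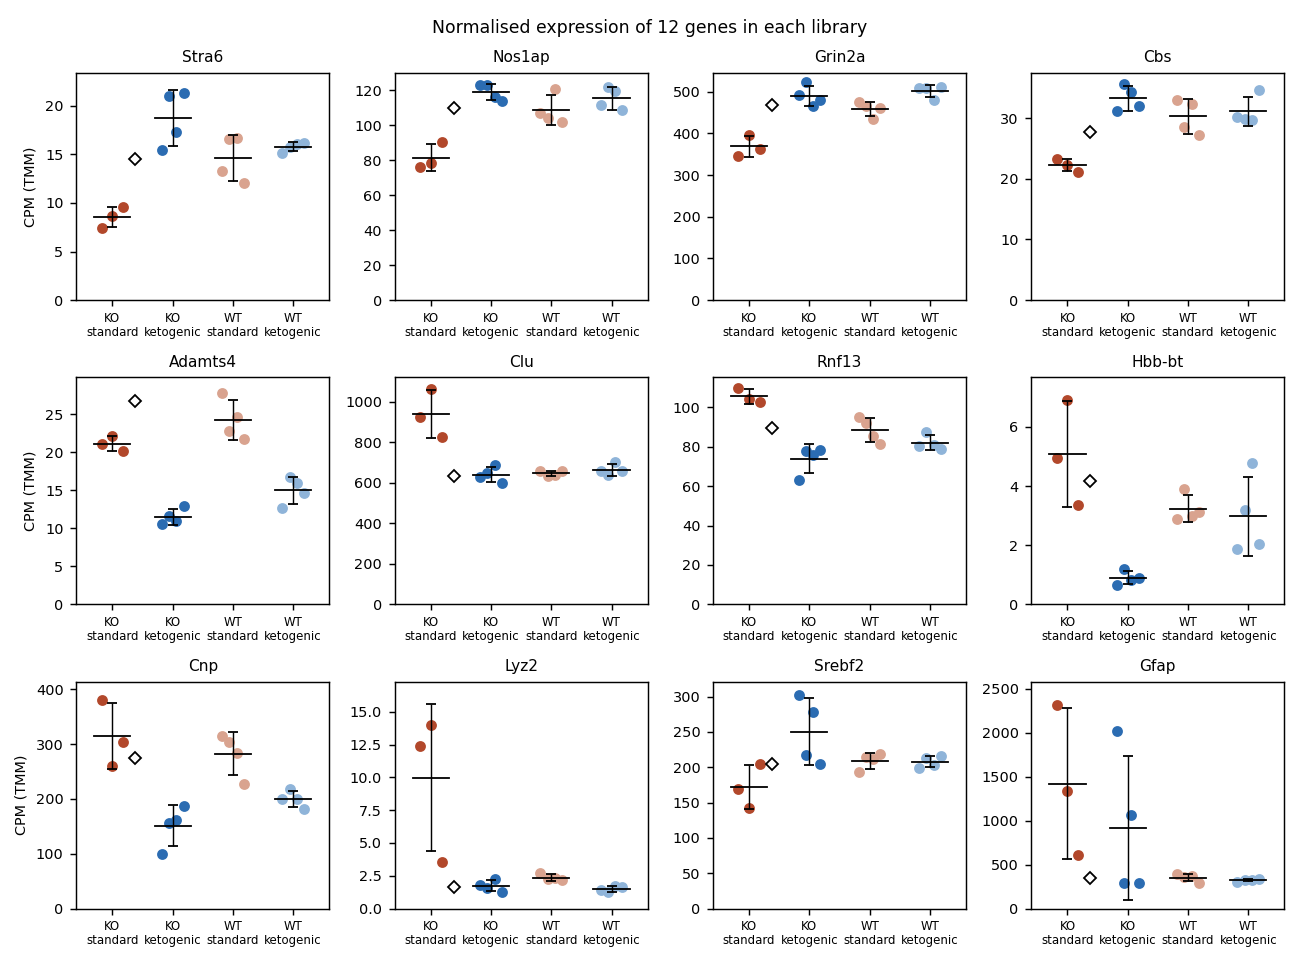
CPM (vertical axes, from 0) of 12 genes in each library, by genotype and diet. Filled points are libraries, horizontal lines group means, error bars SD (n = 3 for the standard-diet knockout and 4 for the other groups; lower bars end at 0), and the open diamond is KC888LL, left out of that group. In Nos1ap, Grin2a, Cbs, Clu and Lyz2 the ketogenic-diet knockout lies near the wild-type libraries. Gfap spreads widely in both knockout groups.

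For gene groups, 46 lists were read by their counts and medians, beside a median log2 fold change of 0.01 and a called share of 6.18% (2.58% higher and 3.60% lower) over all tested genes. Lists with 1 or 2 called genes are given for their members' values, and nothing is read from their counts: the share was 5.71% for potassium channels, 6.25% for neuropeptide and for glucocorticoid genes, 5.56% for clock genes and 4.35% for ketone use, all near the share over all genes. In the fit of the 7 libraries alone, the genes called lower were 0 for microglia, 2 for complement, 2 for lysosome, 3 for myelin and 3 for red blood cells, and 2 glutamate receptor and scaffold genes were called higher. In these bulk samples fewer cells of a type and less RNA per cell cannot be told apart. All 18 tested microglial genes had lower fitted values and 16 of them fell (88.9%), though the count depended on single libraries. The median log2 fold change was -0.85 in the knockout and -0.05 in wild type. Tyrobp, the DAP12 signalling adaptor, was at 9.85, 13.4 and 3.48 CPM on standard and 2.94, 2.92, 3.26 and 2.53 on ketogenic diet (-1.62 ± 0.29, adjusted p = 0.00499). Itgam, which encodes CD11b, was at 14.6, 12.1 and 6.08 and 5.60, 3.67, 3.53 and 4.35 (-1.36 ± 0.22). P2ry12, the ADP receptor of homeostatic microglia, was at 59.1, 57.2 and 34.1 and 23.4, 30.5, 27.7 and 25.9 (-0.90 ± 0.16). In each, KC872RL and KC873RR were high and KC893RL lay just above the ketogenic-diet libraries. Summed over the 18 genes, the level was 715, 728 and 363 CPM on standard diet and 317 to 339 on ketogenic diet, with 350 to 386 in wild type and 356 in KC888LL. KC872RL and KC873RR are also the 2 libraries with Ddx3y among the 7. In wild type KC846L on ketogenic and KC890RL on standard diet had Ddx3y as well, at 55.6 and 65.4 CPM of total. They held 380.8 and 378.5 CPM summed over the 18 genes, and both enter the fit with Xist as a covariate. The part of sex in the microglial difference was not tested. Between the diets the knockout libraries overlapped for 12 of the 18 genes. The number that fell was 3 without KC872RL, 6 without KC873RR, 17 without KC893RL, 1 with KC888LL and 0 with Xist as a covariate. The median was -0.70 without KC872RL, -0.69 without KC873RR, -0.70 with KC888LL and -0.50 with Xist as a covariate, and -0.12 in the libraries with Xist and without Ddx3y.

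Among genes that microglia raise near damage, of 18 tested members of that list, 10 fell, 1 rose, and the median was -1.12. Lyz2, lysozyme, was at 12.4, 14.0 and 3.55 CPM on standard and 1.80, 1.57, 2.26 and 1.29 on ketogenic diet (-2.52 ± 0.33, adjusted p = 0.00165). Cd68, a lysosomal protein of phagocytes, was at 14.0, 15.5 and 6.90 and 5.80, 3.07, 4.86 and 4.35 (-1.42 ± 0.24). Both were highest in KC872RL and KC873RR, and in KC893RL still above every ketogenic-diet library, whereas KC888LL held 1.68 and 4.49. Mpeg1, a pore-forming protein of macrophages, was at 41.9, 68.2 and 8.49 and 2.94, 4.57, 5.41 and 4.64 (-3.17 ± 0.51, adjusted p = 0.00625); without KC873RR its log2 fold change was -2.53. Spp1, osteopontin, chosen after its values were seen, had the largest fold of the list at -4.14 but overlapped, with 21.9, 13.03 and 0.443 CPM on standard and 1.27, 0.374, 0.331 and 0.705 on ketogenic diet. Lpl, lipoprotein lipase, was the member that rose, by 0.41 on the log2 scale. With KC888LL 3 of the 18 fell, 3 without KC872RL and 6 without KC873RR, at medians of -0.74, -0.88 and -0.89. In the 7 libraries alone 0 fell, and 1 fell with Xist as a covariate, at a median of -0.64. Requiring at least 10 counts in every library gave a median of -0.58. In the libraries with Xist and without Ddx3y the median was -0.19 and Mpeg1 was at -0.95.

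Of 12 complement genes 8 fell, with a median of -1.06. C1qa, a chain of the initiator C1q, was at 71.6, 66.5 and 27.7 CPM on standard and 27.2, 23.5, 26.0 and 23.9 on ketogenic diet (-1.14 ± 0.23, adjusted p = 0.0165). C3, the central component, was at 3.65, 7.91 and 2.09 and 0.133, 0.150, 0.221 and 0.647 (-3.91 ± 0.79, adjusted p = 0.0134), and its log2 fold change was -3.26 without KC873RR and -4.67 without KC935LL. C1qa in KC893RL was level with the ketogenic-diet libraries, whereas C3 remained above them. Without KC872RL 0 of the 12 passed, without KC873RR 2 and with KC888LL 1, at medians of -0.77, -0.97 and -0.82, and without KC916RRL 5 did. Xist as a covariate gave 0 and a complement median of -0.63. In the libraries with Xist and without Ddx3y the complement median was -0.36, with C1qa at -0.14 and C3 at -2.79. Among 26 interferon and MHC class I genes 5 fell, including B2m, the MHC light chain, at 44.2, 46.1 and 28.8 and 21.7, 17.7, 24.7 and 19.99 (-0.92 ± 0.13), and H2-K1 (-1.15 ± 0.21). In this list 0 passed with KC888LL, 1 without KC872RL, 2 without KC873RR and 8 without KC893RL, and 3 without KC916RRL or KC935LL. Its median of -0.48 was -0.28 without KC872RL and -0.22 with Xist as a covariate. In the libraries with Xist and without Ddx3y it was -0.10. Of 25 lysosomal genes 14 fell, with a median of -0.27. Lamp1, a lysosomal membrane protein, was at 274, 269 and 231 and 184, 171, 205 and 183 (-0.47 ± 0.08), and Ctsa, cathepsin A, at 112, 109 and 83.5 and 69.0, 72.3, 66.8 and 68.8 (-0.55 ± 0.08). The lysosomal count was 4 without KC872RL, 7 without KC873RR and 1 with KC888LL, at medians of -0.24, -0.25 and -0.25. The lysosomal median was -0.45 without KC893RL and -0.14 in the libraries with Xist and without Ddx3y. Of 11 chemokine and cytokine genes 2 fell, among them Csf1, a growth factor of microglia (-0.36 ± 0.09). None of them passed without KC872RL or without KC873RR, and 1 did with KC888LL. The list median of -0.23 became 0.14 in the libraries with Xist and without Ddx3y, and the sum over the list was higher on ketogenic diet, at 597 to 657 CPM against 547 to 580.3.

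Gfap, the intermediate filament most used to mark astrogliosis, was at 2313, 1338 and 610.3 CPM on standard diet and 2013, 289, 1058 and 295 on ketogenic diet. The groups overlapped: KC913RR and KC934R were in the range of the standard-diet knockout, and KC916RRL and KC935LL were near the wild-type means of 352 ± 41.8 and 323 ± 12.9, as was KC888LL at 348. The log2 fold change was -0.64 ± 0.62 (adjusted p = 0.6), -0.09 without KC872RL, -1.38 without KC913RR and 0.58 in the libraries with Xist and without Ddx3y. Vim, another intermediate filament, was at 243, 81.8 and 51.6 and 128, 22.3, 71.1 and 27.0 (-1.02 ± 0.59, adjusted p = 0.352), with a log2 fold change of -0.10 without KC872RL and -1.64 without KC913RR. Serpina3n, a secreted protease inhibitor, was at 258, 157 and 85.4 and 178, 48.4, 125 and 46.0 (-0.75 ± 0.46, adjusted p = 0.373). In all 3 genes KC872RL was highest, followed by KC913RR, KC873RR and KC934R, and KC916RRL and KC935LL were lowest. Of 11 reactive astrocyte genes 1 passed, Steap4, at 0.800, 2.27 and 0.443 and 0.133, 0.225, 0.221 and 0.0588 CPM (-2.84 ± 0.73, and -1.96 without KC873RR). Its wild-type means were 0.233 and 0.0524 CPM, and it was not tested with KC888LL, so nothing is read from its call. The list median of -0.29 became -1.16 without KC913RR, where 4 fell. It became 0.02 with KC888LL, where none of the members tested passed. The median was 0.01 with Xist as a covariate and 0.50 in the libraries with Xist and without Ddx3y. With 1 surrogate variable the median was -0.96 and 7 were called lower. Among 18 genes of astrocyte homeostasis 3 fell: S100b, Mlc1, a membrane protein of astrocyte endfeet (-0.55 ± 0.09), and Slc1a3, the glutamate transporter GLAST (-0.27 ± 0.07). S100b and Mlc1 passed with KC888LL. Without KC872RL, KC873RR or KC913RR 2 genes fell, without KC893RL 5 and without KC934R 6. With Xist as a covariate or in the 7 libraries alone 1 fell. The median of these 18 was -0.24, and -0.02 in the libraries with Xist and without Ddx3y. Aqp4, the endfoot water channel, was at 385, 283 and 176 and 244, 108, 229.7 and 115 (-0.69 ± 0.31, adjusted p = 0.215).

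Of 23 tested myelin genes 16 fell in the knockout, all 23 had lower fitted values and 21 did not overlap; the median was -0.84. In wild type all 23 also had lower fitted values, 18 at an unadjusted p below 0.05 and 0 at an adjusted one. The genotype by diet interaction was at an unadjusted p below 0.05 for 3 of the 23, against 11.5% of all tested genes. Cnp, an enzyme of the myelin sheath, was at 380.0, 260.1 and 304 CPM on standard and 99.1, 156, 162 and 187 on ketogenic diet (-1.06 ± 0.18, adjusted p = 0.00725). Trf, transferrin, was at 61.4, 50.1 and 48.6 and 24.9, 30.3, 29.1 and 32.6 (-0.87 ± 0.13). Gjb1, connexin 32, was at 10.3, 11.8 and 8.23 and 5.34, 4.64, 5.19 and 6.11 (-0.92 ± 0.16). KC893RL stood with KC872RL and KC873RR in these genes. The 23 genes summed to 6047, 5905 and 6482 CPM on standard diet, to 2387, 3585, 3145 and 4339 on ketogenic diet and to 6146 in KC888LL. In wild type they summed to 4762 to 7373 on standard and 3977 to 5033 on ketogenic diet, overlapping between the diets, with a median log2 fold change of -0.47. With KC888LL 16 fell, without KC872RL 4, with Xist as a covariate 3, and in the libraries with Xist and without Ddx3y 0. The medians in these fits were -0.82, -0.79, -0.85 and -0.83. KC913RR, the ketogenic-diet library with the lowest myelin sum, changed the median to -0.68 when left out.

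Of 17 precursor and differentiation genes of the same lineage 6 fell, with a median of -0.69. Enpp6, a marker of newly forming oligodendrocytes, was at 29.3, 11.5 and 12.8 CPM on standard and 3.00, 4.79, 3.70 and 3.82 on ketogenic diet (-2.23 ± 0.32, adjusted p = 0.0033). Bcas1, which marks early myelinating cells, was at 313, 149 and 174 and 59.97, 89.7, 81.1 and 100 (-1.36 ± 0.23). Bmp4, a growth factor ligand, was at 15.4, 2.79 and 3.86 and 0.734, 1.20, 1.77 and 1.12 (-2.60 ± 0.48), and at -1.44 without KC872RL. KC872RL was the highest library in all 3 genes and the other standard-diet libraries remained above the ketogenic-diet range. Without KC872RL the list median was -0.33 and 4 fell; with KC888LL 6 fell, and without KC873RR or KC893RL 10. In the 7 libraries alone 1 fell, at a median of -0.70, and 0 with Xist as a covariate, at -0.58, or in the libraries with Xist and without Ddx3y, at -0.36. Sirt2 (-0.69 ± 0.10), a deacetylase rich in oligodendrocytes, and Sox10 (-0.61 ± 0.11), the lineage transcription factor, also fell. Klk6, a secreted serine protease of oligodendrocytes, was at 5.55, 2.501 and 0.443 CPM on standard and 0.267, 0.0749, 0.110 and 0.118 on ketogenic diet (-4.27 ± 0.78, adjusted p = 0.00647), and -3.32 without KC872RL (adjusted p = 0.0514). At these levels the ketogenic-diet libraries held few reads of Klk6. Its wild-type means were 0.473 and 0.163 CPM on standard and ketogenic diet. Klk6 was not tested with KC888LL or in the libraries with Xist and without Ddx3y, so nothing is read from its call. Ccnb1 and Top2a, which drive and serve cell division, were likewise highest in KC872RL, at 3.65 and 18.9 CPM against 0.698 and 3.08 in KC873RR.

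Haemoglobin transcripts set the ketogenic-diet knockout apart from all other groups. Of 5 red blood cell genes 4 fell, with a median of -2.02 in the knockout and -0.09 in wild type. Hbb-bt, an adult beta globin gene on chromosome 7, was at 4.95, 6.92 and 3.36 CPM on standard and 0.667, 1.20, 0.828 and 0.882 on ketogenic diet (-2.51 ± 0.33, adjusted p = 0.00127). Hbb-bs was at 36.0, 44.6 and 26.1 and 9.07, 11.5, 7.89 and 6.996 (-2.02 ± 0.32), and Alas2, the haem synthesis enzyme of red cells, at 4.70, 3.90 and 2.91 and 0.867, 1.20, 0.938 and 0.588 (-2.11 ± 0.38). No value overlapped between the diets. The globin genes are near-identical copies, so reads may be split among them. Summed over the list, the 4 ketogenic-diet knockout libraries held 17.5 to 32.5 CPM, KC888LL 90.0 and the 8 wild-type libraries 42.8 to 105. The count of 4 was the same with KC888LL and without each library of KC872RL, KC873RR and KC893RL, and was 1 with Xist as a covariate, at a median of -2.05, and 0 in the libraries with Xist and without Ddx3y, at -1.57. How the tissue was cleared of blood is not given in the sources used here, and its part in the difference was not tested.

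Of 17 endothelial genes 2 fell: Slc2a1, the glucose transporter GLUT1 of the blood-brain barrier, at 145, 136 and 133 CPM on standard and 82.9, 107, 101 and 89.7 on ketogenic diet (-0.54 ± 0.10, adjusted p = 0.00532), and Abcb1a, the efflux pump P-glycoprotein (-0.59 ± 0.17, adjusted p = 0.048). With KC888LL Slc2a1 alone passed. The number of endothelial genes that fell was 1 without KC872RL, KC873RR or KC893RL, 3 without KC913RR and 5 without KC934R. Of 12 pericyte and smooth muscle genes none passed (median -0.03), and of 13 fibroblast and meningeal genes none (median -0.56). Choroid plexus genes had a median of -2.48 with 0 of 11 called in edgeR's fit of 15 libraries, 6 called lower in edgeR's fit of the 7 libraries alone and 1 by DESeq2. The median was -3.33 without KC935LL, -4.04 with Xist as a covariate and -1.48 with at least 10 counts in every library. Ttr, transthyretin, was at 318, 166 and 507 and 3.94, 17.2, 21.6 and 31.2 CPM (-4.15 ± 1.83, adjusted p = 0.215). The list summed to 216 to 595 CPM in the standard-diet knockout and 48.8 to 64.0 on ketogenic diet, but ranged from 37.3 to 1128 in wild type. KC888LL, on standard diet, held 57.9, at the level of the ketogenic-diet libraries.

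**Figure D3:**
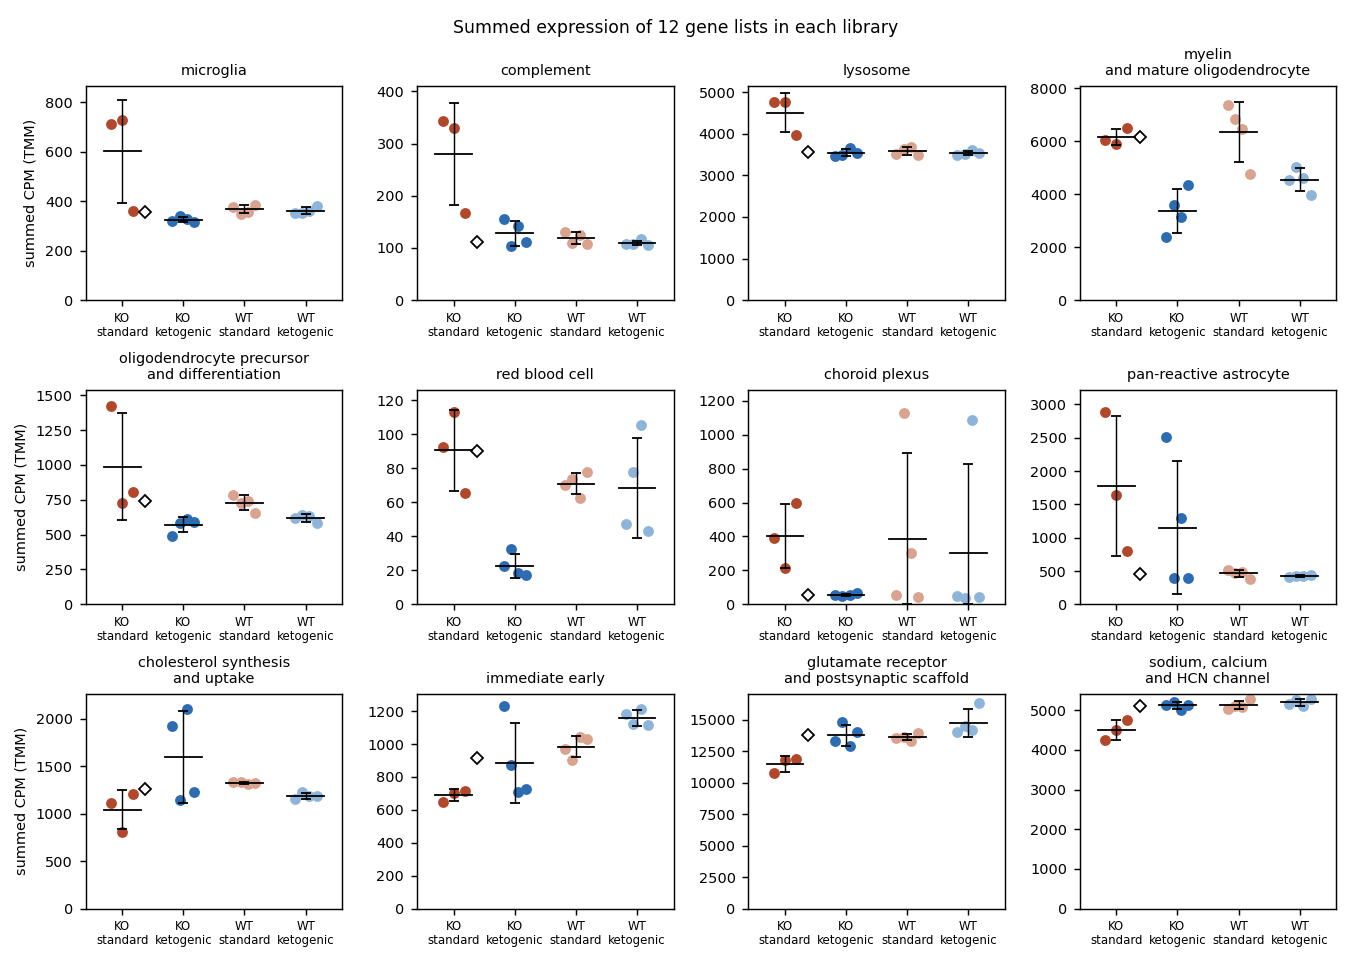
CPM summed over the tested genes of 12 lists (vertical axes, from 0) in each library, by genotype and diet. Filled points are libraries, lines group means, error bars SD (n = 3 for the standard-diet knockout and 4 for the other groups; lower bars end at 0), and the open diamond is KC888LL, left out of that group. Microglial sums are high in KC872RL and KC873RR alone, whereas myelin and red blood cell sums separate the diets in all 7 knockout libraries.

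Of 28 glutamate receptor and postsynaptic scaffold genes 8 rose and none fell, with a median of 0.21 in the knockout and 0.04 in wild type. Shank3, a scaffold of the postsynaptic density, was at 261, 307 and 313 CPM on standard and 398, 401, 387 and 383 on ketogenic diet (0.42 ± 0.07, adjusted p = 0.00379). Shank1 was at 527, 616 and 634 and 889, 919, 737 and 758 (0.48 ± 0.09), and Grin2b, the GluN2B subunit, at 591, 620.3 and 671 and 830.0, 783, 772 and 752 (0.32 ± 0.07). These genes did not overlap between the diets, and KC872RL was the lowest library in each. The list summed to 10797 to 11924 CPM on standard diet, 12921 to 14848 on ketogenic diet and 13354 to 16385 in wild type. The count was 2 with KC888LL, 3 without KC872RL and 2 with Xist as a covariate, at medians of 0.13, 0.18 and 0.20. In the libraries with Xist and without Ddx3y the median of this list was 0.12.

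Of 26 vesicle and release genes 5 rose, led by Unc13a, Cplx2, a complexin that clamps fusion (0.42 ± 0.08), and Bsn, the active zone scaffold bassoon (0.35 ± 0.08). Of 28 sodium, calcium and HCN channel genes 6 rose and 1 fell. Cacna1e, a calcium channel pore, was at 477, 530.2 and 509.5 CPM on standard and 617, 619, 597 and 639 on ketogenic diet (0.29 ± 0.06, adjusted p = 0.00891), and Scn8a, the sodium channel Nav1.6, at 411, 439 and 453 and 505, 539.5, 516 and 534 (0.27 ± 0.06). Both were higher in every ketogenic-diet library than in any standard-diet one. Of 35 potassium channel genes 2 rose, among them Kcnj6, the channel GIRK2, at 55.9, 56.3 and 62.0 and 76.1, 71.4, 72.2 and 72.5 (0.33 ± 0.08, adjusted p = 0.0215). Of 22 GABA genes Gabbr2, a GABA-B receptor subunit, rose (0.29 ± 0.07) and Slc12a2, the chloride importer NKCC1, fell. Slc12a2 was at 98.9, 101 and 112 CPM on standard and 67.7, 63.3, 66.6 and 75.8 on ketogenic diet (-0.60 ± 0.11, adjusted p = 0.00595), and its wild-type means were 102 ± 17.1 and 82.2 ± 8.25. With KC888LL Slc12a2 passed and Gabbr2 did not. The median log2 fold changes were 0.13 for vesicle genes, 0.12 for sodium, calcium and HCN channels, 0.06 for potassium channels and 0.03 for GABA genes. With Xist as a covariate these medians were 0.09, 0.15, 0.01 and -0.10, and the numbers that rose were 1, 0, 0 and 0. In the libraries with Xist and without Ddx3y the medians were -0.005, 0.10, -0.008 and -0.12. With KC888LL the counts were 1 for vesicle genes, 1 rising and 1 falling for sodium, calcium and HCN channels, and 1 for potassium channels, and without KC872RL the numbers that rose were 1, 0 and 1. Without KC873RR 3 vesicle genes rose.

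Calb1, calbindin, a marker of granule cells, was the member of the 12 dentate genes that rose, at 73.0, 80.6 and 74.4 CPM on standard and 124, 115, 96.9 and 114 on ketogenic diet (0.56 ± 0.09, adjusted p = 0.00334). With KC888LL, which held 129, its adjusted p was 0.293. None of 14 CA1 and CA3 pyramidal genes passed (median 0.36). Of 15 interneuron genes Npas1 (0.47 ± 0.10) and Lhx6 (0.49 ± 0.12) rose, of which Npas1 also passed with KC888LL. Among 19 genes of neurogenesis and proliferation Tubb3, a neuronal tubulin, rose (0.43 ± 0.10) and Ccnb1 fell (-2.20 ± 0.58). Without KC872RL Ccnb1 was at -1.18 (adjusted p = 0.391), and with KC888LL the adjusted p was 0.0682 for Tubb3 and 0.081 for Ccnb1. Of 13 thalamic genes Ptpn3 rose (0.39 ± 0.09) and Tcf7l2 (-1.13 ± 0.30) and Rora (-0.52 ± 0.14) fell; Tcf7l2, which oligodendrocytes also express, was at 15.2 CPM in KC872RL, and without it the log2 fold change was -0.50 (adjusted p = 0.334). With KC888LL Tcf7l2 passed and Ptpn3 and Rora did not. No thalamic gene fell without KC872RL, KC913RR or KC934R, and none rose without KC872RL or KC873RR. None of 9 striatal genes passed, and Drd1, a dopamine receptor, was at 17.5, 16.1 and 19.4 and 25.02, 4.79, 14.8 and 3.23 CPM, with KC913RR highest; its log2 fold change of -0.56 was -1.19 without KC913RR and -0.24 without KC935LL.

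Of 24 immediate early genes 20 had higher fitted values, 2 rose and 1 fell, with a median of 0.58. The number that rose was 8 without KC934R, 0 without KC872RL and 1 without KC916RRL or KC935LL, and DESeq2 called 6 higher. Arc, a synaptic plasticity protein induced by firing, was at 15.9, 31.8 and 20.01 CPM on standard and 75.8, 69.3, 27.1 and 43.0 on ketogenic diet (1.25 ± 0.32, adjusted p = 0.044), overlapping between the diets, and its wild-type means were 81.8 ± 6.98 and 139 ± 11.3. Nr4a3, a nuclear receptor, was at 39.0, 54.1 and 60.8 and 75.8, 84.3, 66.5 and 89.4 (0.62 ± 0.13), below the wild-type means of 106 ± 7.80 and 100.03 ± 9.63. Klf4, a transcription factor also active in vessels, fell (-0.97 ± 0.20). KC913RR had the highest sum of the list, 1233 CPM against 711 to 874 in the other ketogenic-diet libraries and 649 to 717 on standard diet. Without KC913RR the median was 0.19, and with KC888LL 0.20. With KC888LL neither rising gene passed: Arc was at 0.65 (adjusted p = 0.45) and Nr4a3 at 0.32 (adjusted p = 0.467), while Klf4 did. Of 19 late activity-induced genes 0 were called in edgeR's fit of 15 libraries or by DESeq2, with a median of 0.31 that became -0.09 without KC913RR, where 2 were called lower. Adding 1 surrogate variable gave 3 called higher and 3 lower, at a median of 0.06. Homer1 was at 293, 104, 105 and 101 CPM and Nrn1 at 385, 179, 207 and 178 on ketogenic diet, with KC913RR far above the rest. Of 16 neuropeptide genes Cck, cholecystokinin, rose (0.38 ± 0.08, adjusted p = 0.0114), at 125, 129 and 130.5 and 165, 181, 151 and 171 CPM and below the wild-type means of 205 ± 19.2 and 213 ± 18.4. With KC888LL Cck was at 0.20 (adjusted p = 0.418) and 0 of the 16 passed. Npy, which seizures induce in granule cells, was at 152, 42.3 and 91.1 and 59.8, 20.1, 100.2 and 18.5 (-0.93 ± 0.54, adjusted p = 0.349), high in the same ketogenic-diet libraries as Gfap. Its log2 fold change was -0.41 without KC872RL and -1.54 without KC934R.

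Of 25 genes of cholesterol synthesis and uptake 4 rose and 0 fell, and 23 had fitted values above 0. The median was 0.56, against -0.13 in wild type. Srebf2, the transcription factor SREBP-2 that drives the pathway, was at 169, 142 and 204 CPM on standard and 302, 217, 278 and 205 on ketogenic diet (0.54 ± 0.13, adjusted p = 0.0245). The synthesis enzymes Lss (0.36 ± 0.09) and Mvd (0.76 ± 0.20) rose as well. DESeq2 called 13. KC913RR and KC934R were the high libraries, with sums over the list of 1924 and 2104 CPM, whereas KC916RRL and KC935LL held 1141 and 1230, within or just above the 807 to 1204 of the standard diet and close to the 1151 to 1336 of wild type. Without KC872RL, without KC873RR or with Xist as a covariate no gene of the list passed, with KC888LL 1 did, without KC913RR or KC934R 2, without KC935LL 10 and without KC916RRL 13, and the median stayed between 0.39 and 0.70 in every alternative run. The genotype by diet interaction was at an unadjusted p below 0.05 for 19 of the 25 genes, and for 11.5% of all tested genes.

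Promoters of these genes are printed because the members were high in the same libraries. RefSeq windows (GRCm38.p6, 250 bases before to 50 after the start site) were available for 17 of the 25 genes. The CCAAT box, searched as CCAAT on both strands, was found in 16 of the 17, against 42.2% of the 12274 tested genes with a window and 37.4% of all 32851 windows. The sterol regulatory element, searched as TCACNCCAC on both strands, was found in 1 of the 17, Hmgcs1, against 1.38% of tested genes and 1.24% of all windows. A match is a run of letters and not a shown binding site. The stretches from 150 to 21 bases before the start site follow, 5′ to 3′ on the gene's strand, with CCAAT (or its reverse complement ATTGG) and the sterol element in capitals, at chr8:122443443-122443572 (minus strand) for Mvd, chr10:76531455-76531584 (plus strand) for Lss and chr13:119690201-119690330 (plus strand) for Hmgcs1.
Mvd: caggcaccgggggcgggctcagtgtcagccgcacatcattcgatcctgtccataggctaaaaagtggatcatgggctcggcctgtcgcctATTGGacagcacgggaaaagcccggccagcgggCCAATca
Lss: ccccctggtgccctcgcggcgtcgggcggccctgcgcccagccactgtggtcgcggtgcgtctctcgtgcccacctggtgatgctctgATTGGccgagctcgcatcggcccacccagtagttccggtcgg
Hmgcs1: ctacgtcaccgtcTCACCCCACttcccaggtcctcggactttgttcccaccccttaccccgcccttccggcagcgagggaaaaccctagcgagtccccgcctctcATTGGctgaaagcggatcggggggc
Mvd and Lss were among the 4 genes that rose; Hmgcs1, the enzyme that makes HMG-CoA, had a log2 fold change of 0.80 that did not pass. Of the 335 higher genes with a window 39.1% held a CCAAT box, and of the 491 lower genes 45.4%.

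In lipid handling outside synthesis, 3 of 18 genes rose and 3 fell; with KC888LL 0 rose and 1 fell, without KC872RL 0 and 0, without KC873RR 1 and 0, without KC913RR 1 and 1, and without KC934R 1 and 3. Fasn, fatty acid synthase, rose (0.33 ± 0.06), and Abca1, the cholesterol efflux pump, fell, at 93.8, 139.6 and 73.1 CPM on standard and 54.4, 71.0, 55.3 and 62.0 on ketogenic diet (-0.75 ± 0.17, adjusted p = 0.0248). Abca1 was highest in KC873RR.

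Of 21 fatty acid oxidation genes 19 had lower fitted values, with a median of -0.16, and 2 fell: Cpt2, the inner carnitine palmitoyltransferase, at 7.80, 4.60 and 5.19 CPM on standard and 3.40, 3.14, 2.92 and 3.65 on ketogenic diet (-0.84 ± 0.21, adjusted p = 0.0266), and Hadhb, a subunit of the trifunctional enzyme (-0.27 ± 0.07). Of 23 genes of ketone use and PPAR targets 1 passed, Plin2, a lipid droplet protein, which fell (-0.84 ± 0.21). Pdk4, the kinase that shuts pyruvate out of oxidation and a PPAR target, was at 18.9, 15.4 and 16.6 and 6.07, 9.58, 13.3 and 12.6 CPM (-0.70 ± 0.21, adjusted p = 0.0615). Every ketogenic-diet library lay below the standard-diet ones for Pdk4, and the test was missed. With KC888LL 0 genes of these lists passed. For fatty acid oxidation the count was 6 without KC893RL, 4 without KC934R, 1 without KC873RR or KC913RR and 0 without KC872RL or KC916RRL, and the median was -0.08 without KC872RL. Slc16a1, the monocarboxylate transporter MCT1, was at 57.5, 49.4 and 48.3 and 49.0, 40.1, 46.3 and 41.6 (-0.23 ± 0.09, adjusted p = 0.141).

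Of 28 glycolysis and glucose transport genes 5 rose and Slc2a1 fell (1 and 1 with KC888LL; 1 rose without KC872RL or KC873RR, 2 without KC934R and 3 without KC893RL). Pfkl, liver-type phosphofructokinase, was at 239, 271 and 274 CPM on standard and 445, 348, 351 and 341 on ketogenic diet (0.51 ± 0.09, adjusted p = 0.00453), with KC913RR highest. Slc2a3, the neuronal transporter GLUT3, rose (0.30 ± 0.08) while Slc2a1, its endothelial and glial relative, was lower. Of 74 nuclear genes of oxidative phosphorylation 60 had higher fitted values, with a median of 0.07, and 1 rose, Atp5o (0.23 ± 0.06); with KC888LL 0 did. Of 12 genes of the mitochondrial genome 2 fell, mt-Nd4 (-0.23 ± 0.06) and mt-Cytb (-0.19 ± 0.06). With KC888LL 0 did, and likewise 0 without any 1 of KC872RL, KC873RR, KC893RL, KC913RR, KC916RRL and KC935LL. Of 74 ribosomal protein genes 0 passed in edgeR or DESeq2 (median -0.02).

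Of 22 antioxidant genes 4 fell (1 with KC888LL, without KC872RL or without KC873RR, and 2 without KC935LL), led by Nfe2l2, the transcription factor NRF2, at 16.8, 15.5 and 12.9 CPM on standard and 10.6, 8.54, 9.38 and 7.58 on ketogenic diet (-0.74 ± 0.13, adjusted p = 0.00426). Mt1, a metallothionein, was at 153, 163 and 122 and 117, 71.9, 67.4 and 83.2 (-0.78 ± 0.16), with KC913RR nearest to the standard-diet range. Of 22 unfolded protein and heat shock genes 5 fell and 1 rose; Hspa5, the chaperone BiP, fell by 0.26 on the log2 scale, with a value of -0.23 in wild type. With KC888LL 0 of the 22 passed, and the number that fell was 0 without KC872RL, 1 without KC873RR, 2 without KC916RRL and 3 without KC913RR or KC935LL.

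Of 17 retinoid genes Stra6 rose and 2 fell: Dhrs3, which reduces retinal (-0.65 ± 0.15), and Aldh1a1, which makes retinoic acid (-0.68 ± 0.17). The number that fell was 0 without KC872RL or KC873RR, 1 without KC916RRL and 3 without KC934R. Of 21 transsulfuration and one-carbon genes Cbs rose and Psat1, of serine synthesis, fell (-0.42 ± 0.08). With KC888LL Stra6 and Cbs passed and the 3 lower genes did not. Of 18 genes of adenosine and DNA methylation 2 rose and 1 fell. Adora1, the adenosine A1 receptor, was at 213, 197 and 216 CPM on standard and 279, 268, 254 and 273 on ketogenic diet (0.36 ± 0.07, adjusted p = 0.00499), and Adk, the kinase that clears adenosine, at 54.4, 49.6 and 42.6 and 28.7, 34.9, 43.7 and 37.9 (-0.43 ± 0.11, adjusted p = 0.0248). Dnmt1, the maintenance DNA methyltransferase, rose (0.24 ± 0.06). With KC888LL none of these 3 genes passed. In the adenosine list 1 rose and 0 fell without KC872RL, KC873RR or KC916RRL, and 1 rose and 1 fell without KC893RL or KC913RR. Nr3c2, the mineralocorticoid receptor, rose among 16 glucocorticoid genes (0.51 ± 0.09), and Nr1d1, a clock repressor, among 18 clock genes (0.36 ± 0.10). With KC888LL neither passed. Of 19 matrix genes Mmp14, a membrane metalloprotease, rose (0.53 ± 0.11) and Adamts4 fell, of which Adamts4 passed with KC888LL. Of 10 sex-linked genes 0 passed in edgeR, with Xist and Ddx3y spread as described, and DESeq2 called 2.

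**Figure D4:**
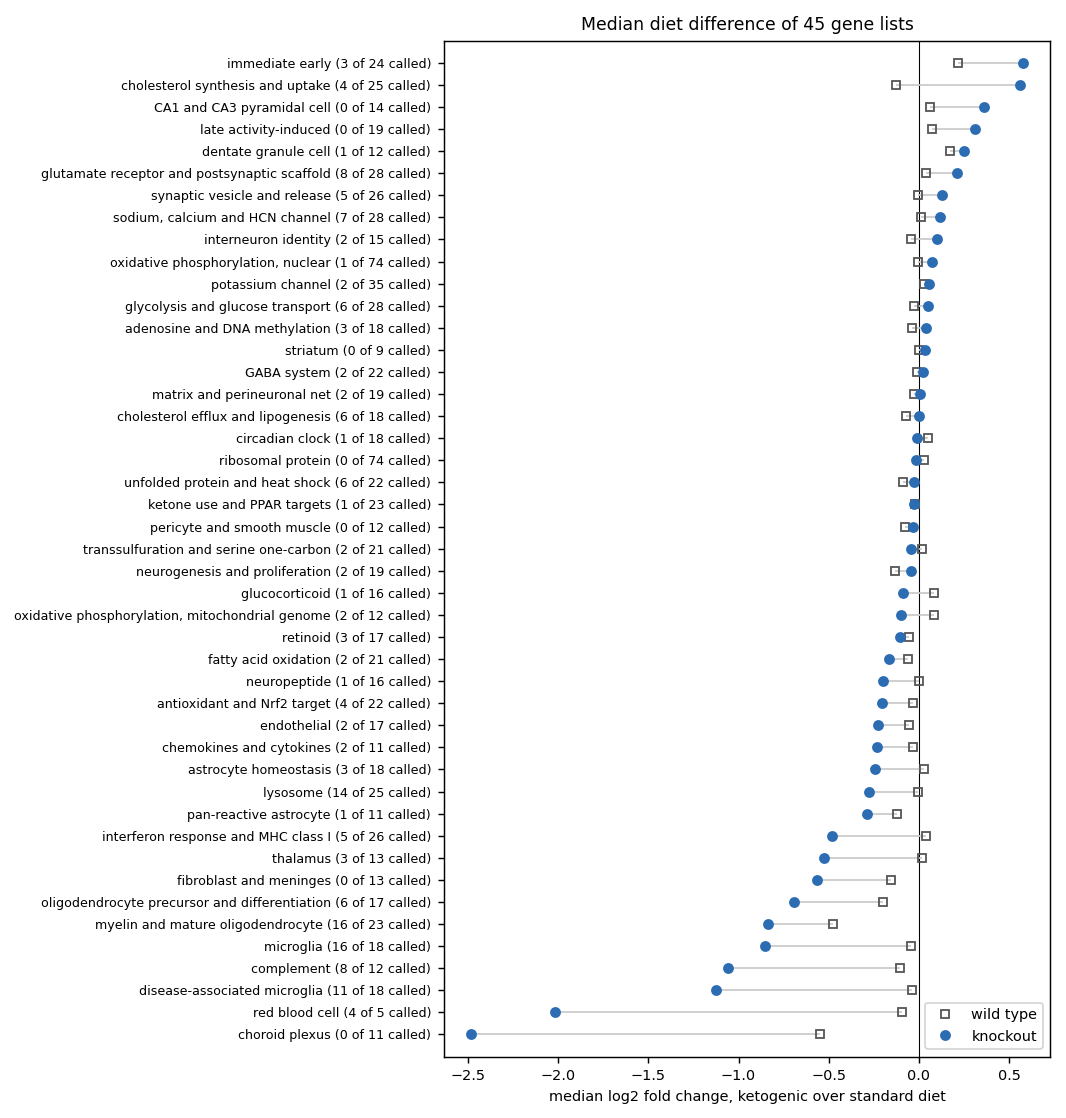
Median log2 fold change of ketogenic over standard diet (horizontal axis) for 45 lists in the knockout (filled circles) and in wild type (open squares); labels give how many of the tested genes were called in the knockout. The knockout medians run from -2.48 for choroid plexus to 0.58 for immediate early genes. The wild-type medians run from -0.55 for choroid plexus to 0.21 for immediate early genes, with myelin at -0.47.

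The wild-type comparison shares no library with that in the knockout. Its 2 called genes were Adamts4, described above, and Btg2, an antiproliferative gene that activity induces, with means of 13.1 ± 1.07 and 22.6 ± 3.43 CPM on standard and ketogenic diet (log2 fold change 0.78, adjusted p = 0.0162), a call lost when any 1 of KC842L, KC843RL, KC844RR, KC890RL, KC894RLL and KC897RR was left out. Btg2 in the knockout was at 11.1, 11.98 and 10.9 and 12.5, 15.3, 11.9 and 15.1 (0.27 ± 0.13, adjusted p = 0.216). The wild-type fold change had the same sign for 63.8% of the 458 higher genes and 71.9% of the 638 lower genes, against 57.0% over all tested genes. The wild-type medians over the same genes were 0.03 and -0.08. The diet effect differed between the genotypes for 0 genes at an adjusted p below 0.05 in edgeR, with 2035 at an unadjusted p below 0.05 and a smallest adjusted p of 0.0827. DESeq2 called 206, and edgeR called 71 with no low-count filter and 189 without KC893RL. The small number of calls in wild type does not show that wild type did not respond.

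**Figure D5:**
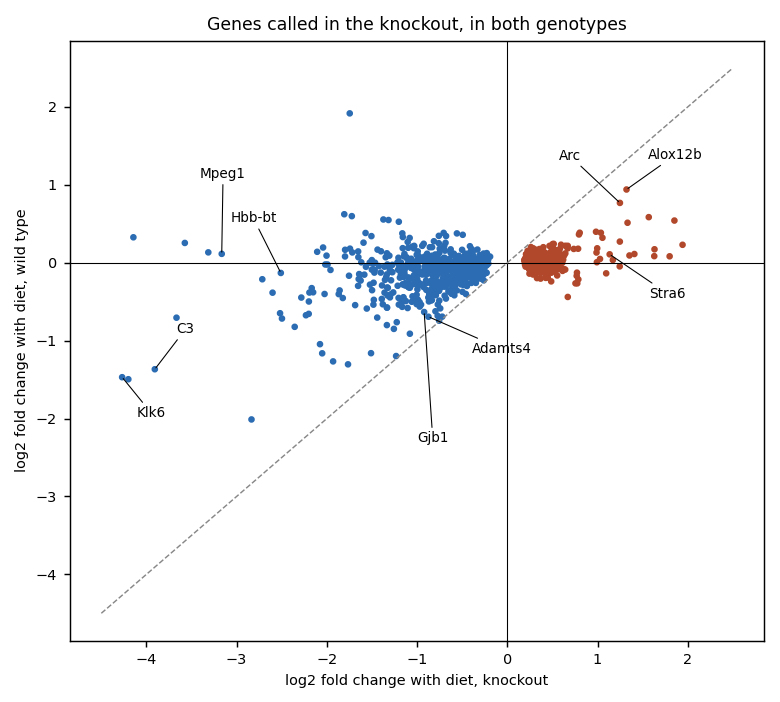
Log2 fold change with diet in wild type (vertical axis) against that in the knockout (horizontal axis) for the 1096 genes called in the knockout, each a point; red genes were higher and blue lower on ketogenic diet, and the dashed line marks equal change. The points were chosen by their knockout value. Adamts4 lies closest to the line among the labelled genes, and most genes lie near 0 in wild type.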

How the data were processed

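The authors deposited 1 table of raw counts per gene for the 16 libraries, with no normalization. The submitters' processing notes name the build mm10 and DESeq2 without a role, and the aligner, counting program, annotation and use of strand are not given in the sources used here. Antisense and overlapping genes may therefore share reads. Each column heading carries a tag, a genotype and a diet, which gave its group; headings were matched to groups and not to single samples. The deposited counts totalled 13440230 to 22309504 per library, and 99.3% of the 49315 gene identifiers were found in GENCODE M21 (GRCm38), the source of gene positions and transcript lengths.

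edgeR 4.0.16 in R 4.3.3 was used with its filter on low counts, TMM scaling and the robust quasi-likelihood test on 15 libraries (KC888LL left out), with 1 coefficient per genotype and diet group and 11 residual degrees of freedom. Contrasts were diet in the knockout, diet in wild type and their difference. A gene was called at a Benjamini-Hochberg adjusted p below 0.05 over all 17725 tested genes. The SE is the absolute log2 fold change divided by the square root of the F statistic. CPM (counts relative to library size) were scaled by TMM library sizes. The test was checked on simulated data with the same spread per gene in all groups and no sex-linked effect. That check therefore does not bear on unequal spread between the groups or on the sex-linked imbalance. No pair of libraries in a group agreed within counting noise.

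Genes named in the text are a fixed few (Kcna1, Gfap, Vim, Serpina3n, Aqp4, Pdk4, Adamts4, Cbs, Stra6, Btg2, Xist, Ddx3y), then the 12 of smallest p and the 6 of largest fold in each direction among called genes with a mean of at least 1 CPM and no overlap, and, from each of 46 lists, those among the 4 members of smallest p. Spp1, Lpl and Hmgcs1 were chosen after their values were seen. A few genes that these rules would name are not reported here. The library rule, the genes and the lists were chosen with earlier results of these data known. Lists were described by counts and medians. Alternatives were DESeq2 1.42.0, limma-voom (limma 3.58.1), other scalings and filters, all 16 libraries, the 7 alone, Xist as a covariate, libraries with Xist above 100 and Ddx3y under 10 CPM only, 1 surrogate variable (sva 3.50.0), each library left out, and a count without the X and Y chromosomes, added after seeing the data.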

Additional observations from a re-analysis of the deposited data

Results flagged for a closer look

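In 6 of the 118 named genes examined, 1 of the 4 ketogenic-diet knockout libraries stood apart from the others by Dixon's criterion. Chance meets it in about 1 of 20 groups, but genes read in the same 4 libraries are not independent. Whether chance gave this number was not tested. KC913RR was the library apart for Shisa6 (260.1 CPM against 221.7 to 226.6 in the other 3), Pfkl (444.9 against 341.5 to 351.1), Nrn1 (384.7 against 178.1 to 207.3), Homer1 (293.4 against 101.0 to 105.3) and Prox1 (203.3 against 150.5 to 155.8). KC935LL was apart for C3, at 0.647 CPM against 0.133 to 0.221.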

How the results depend on the processing

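The number of genes called for diet in the knockout was 1096, and 202 with all 16 libraries, 83 with the 7 libraries alone, 71 with Xist as a covariate, 0 (1362 at an unadjusted p below 0.05) in libraries with Xist and without Ddx3y, 1724 with 1 surrogate variable and 531 with a log2 limit of 0.5. Leaving out 1 library gave 139 (KC872RL) to 1338 (KC934R). DESeq2 called 1628, limma-voom 1060, and the other scalings, filters and dispersion settings 1044 to 1106; 1067 remained without the X and Y chromosomes. Of the 2 genes called in wild type, 0 remained in libraries with Xist and without Ddx3y, DESeq2 called 10, and leaving out 1 library gave 0 to 3. The interaction, with 0 called, gave 71 without the low-count filter, 206 in DESeq2 and 0 to 189 when 1 library was left out. In libraries with Xist and without Ddx3y the fold change reversed for Vim (0.27), Serpina3n (0.22) and Gfap (0.58); with Xist as a covariate Gfap was at 0.013. The cause was not tested in any of these. Over the named genes, 79.1% of values under the alternatives kept their direction and side of the threshold. No paired analysis was possible because the column headings carry no replicate number. With 3 libraries on standard diet, of which 1 has Xist, effects of diet and of sex cannot be told apart beyond that library, and genes below about 1 CPM rest on few reads.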
